A study of Danio rerio with 24 samples.

Results

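The 40 genes described here had higher values with retinoic acid (RA) in zebrafish endodermal cells at both stages measured and were more abundant in endodermal than in non-endodermal (NE) cells. They were chosen from 33737 gene IDs by their measured values. The level of a gene in a group, L, was the mean over libraries of log2(CPM + 1), where CPM is the count of a gene scaled to a common library total (counts per 1000000 counts), leaving out ENSDARG00000080337, a gene ID that held 15.5% to 32.6% of each library's counts. A gene was a member when L was at least 1 higher in RA than in DMSO cells at both stages, every RA library lay above every DMSO library of its stage, and L in DMSO endodermal cells exceeded that in NE cells by at least 1, averaged over the stages. Genes whose L was lower by at least 1 with BMS493 than with DMSO at both stages were left out. The criteria on RA were met by 238 genes, and 64 of them were enriched in endodermal cells, of which the BMS493 criterion removed 24. The other 174 raised genes were not enriched.

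The cells came from embryos of incrossed Tg(sox17:GFP) fish, in which sox17 regulatory sequence drives GFP in the endoderm and also in the dorsal forerunner cells that form Kupffer's vesicle. Treatment began at early cleavage and ended at the stage of 3 somites (3-S), with the solvent DMSO as control, RA, or BMS493, which binds RA receptors and holds them in the repressing state. Embryos were dechorionated and deyolked before sorting. RNA-seq was made from GFP+ endodermal cells of the 3 treatments and from GFP- NE cells of the DMSO embryos, sorted at 3-S and at 8 somites (8-S), with 3 libraries in each of the 8 groups. The embryos used at 8-S had been washed at the end of treatment and raised further in embryo medium. Nothing in the labels says that the 3 libraries of a group came from separate clutches, so the p-values given here measure the spread between these libraries.

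RA is made from retinol by way of retinaldehyde and binds nuclear RA receptors, which sit on response elements in the DNA and switch from repression to activation of nearby genes when the ligand binds. The enzymes and binding proteins that remove RA or its precursors are themselves well-known RA targets, which gives the pathway a negative feedback. In the vertebrate endoderm, RA patterns the anteroposterior axis and is needed for the specification of the pancreas.

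Library totals lay between 9971059 and 17806766 counts, and 19150 to 22708 genes had at least 1 count. At this depth 3 counts corresponded to 0.209 to 0.390 CPM, a floor that covers counting error only, since PCR copies without molecular identifiers are not independent molecules. The summed CPM of 9 endodermal markers was 94.4 to 136.6 in NE 3-S and 63.7 to 173.8 in NE 8-S libraries, against 1398 to 3255 in all endodermal libraries, and none of these markers was at 0 in a group. The endodermal libraries also held other cells' markers. Beside the higher RA values of the members, 3 marker lists summed lower with RA and 1 summed higher. The 9 paraxial mesoderm and tailbud markers summed to 136.1 to 234.0 CPM in DMSO and 38.0 to 88.8 in RA cells at 3-S, and to 624.5 to 889.5 and 70.3 to 129.9 at 8-S. The neural list went from 361.0 to 476.0 in DMSO down to 106.0 to 160.1 CPM in RA cells at 3-S and from 697.4 to 808.3 down to 215.6 to 356.0 at 8-S, with eng2b at 0 in RA 3-S and eng2a at 0 in RA 8-S cells. Of the 4 Kupffer vesicle markers 2 were matched, and their sum went from 17.0 to 38.7 CPM down to 0.629 to 2.84 at 3-S and from 60.9 to 266.7 down to at most 2.29 at 8-S. The yolk syncytial layer list of 6 genes summed to 22.3 to 56.6 CPM in DMSO and 77.1 to 118.4 in RA cells at 3-S, and to 35.1 to 56.0 and 67.8 to 99.2 at 8-S. Most of this difference lay in the member hnf4a and in mxtx1, which met the RA criteria and was left out by that on BMS493. The other 4 genes summed to 12.1 to 36.7 CPM in DMSO and 16.1 to 22.8 in RA cells at 3-S, and to 12.6 to 18.4 and 19.7 to 31.6 at 8-S. The prechordal plate and notochord list overlapped between RA and DMSO libraries through col2a1a, its most abundant gene, and without it summed to 148.8 to 240.4 CPM in DMSO and 53.8 to 77.2 in RA cells at 3-S, and to 155.4 to 274.4 and 46.2 to 110.6 at 8-S. On this list gsc went from 41.7 to 104.5 CPM in DMSO down to 0.126 to 0.430 in RA cells at 3-S and from 33.9 to 55.2 down to 0.158 to 0.832 at 8-S. The genes frzb, noto and shha also lay below DMSO without overlap at both stages. In contrast, ntd5, ctslb and col2a1a overlapped with DMSO at both stages, and ntlb at 3-S. The gene col2a1a had 424 to 666 CPM in DMSO and 504 to 3051 in RA cells at 3-S. At 8-S it had 531 to 987 and 405 to 1940. The lists of endoderm, epidermis, neural crest, and of lateral mesoderm, blood and endothelium overlapped between RA and DMSO libraries at both stages. The part of these cells in the members' levels was not tested, and in sorted pools fewer cells of a type and less RNA per cell cannot be told apart.

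The members were of mixed function. By textbook role 3 handle retinoids, 5 are transcription factors, 3 regulate chromatin or RNA, 4 are secreted, 5 lie in the membrane, 5 belong to the cytoskeleton or to cell polarity, 5 act in intracellular signalling, 3 serve metabolism or protein turnover, and 7 are given no role. All 40 had more than 3 counts in at least 1 library and entered every test. Of the 34 members that matched a protein-coding symbol in RefSeq GRCz12tu, cldn29 and cldnd were the one pair of direct neighbours.

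**Figure D1:**
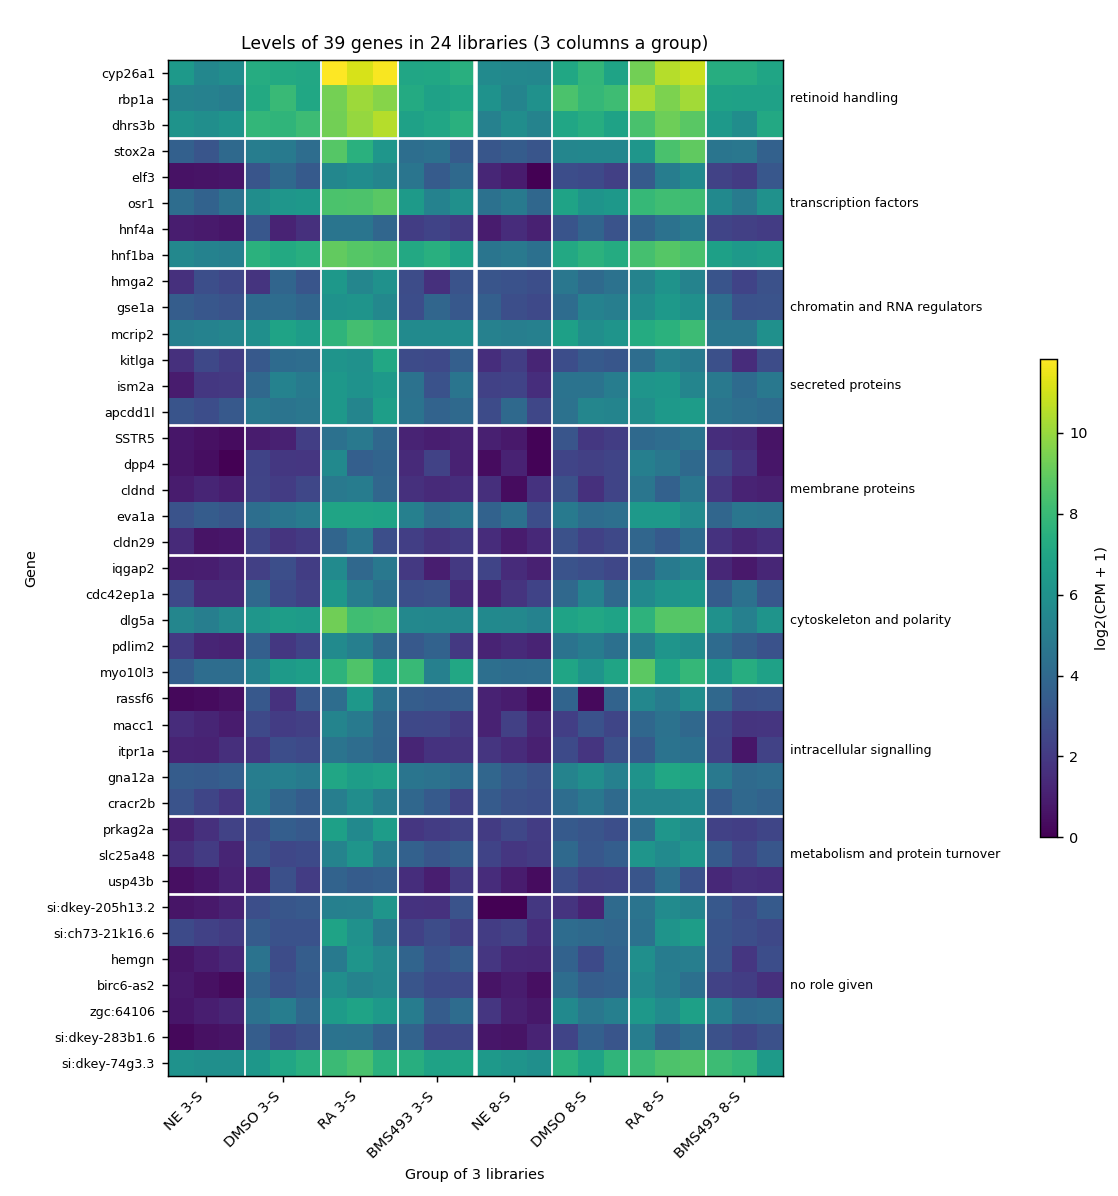
Level of each of 39 of the genes as log2(CPM + 1) (colour) in the 24 libraries, 3 columns a group, with genes grouped by role on the y axis. In every row the 3 RA columns of a stage are brighter than its 3 DMSO columns, which the choice of genes required.

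The members' CPM were summed per library to describe the set as a whole. The sum lay between 413.8 and 487.8 in NE 3-S, between 1433 and 1663 in DMSO 3-S, between 8294 and 9404 in RA 3-S and between 1058 and 1530 in BMS493 3-S libraries. At 8-S it lay between 400.7 and 492.1 in NE, between 1788 and 1954 in DMSO, between 5277 and 7609 in RA and between 1133 and 1315 in BMS493 libraries. Without the 3 retinoid-handling genes the sums were 901.5 to 1049 in DMSO and 3461 to 4443 in RA cells at 3-S, and 1265 to 1340 and 3007 to 4109 at 8-S. The RA and DMSO libraries were kept apart by the choice of genes, which also asked for a higher mean L in DMSO than in NE cells, whereas the BMS493 libraries had a part in it only through the criterion on falls at both stages. The highest BMS493 3-S sum lay inside the DMSO 3-S range, and all 3 BMS493 8-S sums lay below the DMSO 8-S range. Without the 3 retinoid-handling genes the BMS493 3-S sums were 690.4 to 1141, with the highest above the DMSO range. The BMS493 8-S sums were then 764.4 to 954.6, below the DMSO range.

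The RA minus DMSO difference of L had a median of 2.22 over the members at 3-S and of 1.59 at 8-S, and it was larger at 3-S for 36 and at 8-S for 4 of the 40. These differences chose the members and are given as description. The largest mean difference was that of cyp26a1, followed by prkag2a, si:dkey-205h13.2, slc25a48 and stox2a. RA 8-S library 1 was the lowest of its group for 25 of 40 members, as it was for 50.3% of the 13798 genes with a group mean of at least 1 CPM. The value of stox2a at 8-S was 2.41 with and 3.23 without this library, that of elf3 2.13 and 2.77, and that of cyp26a1 2.99 and 3.45. Without it the median difference at 8-S was 1.65, and the difference was larger at 3-S for 33 and at 8-S for 7 members. Without it the rule gave 51 genes, which included 37 of the 40 and lacked birc6-as2, myo10l3 and si:dkey-283b1.6.

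**Figure D2:**
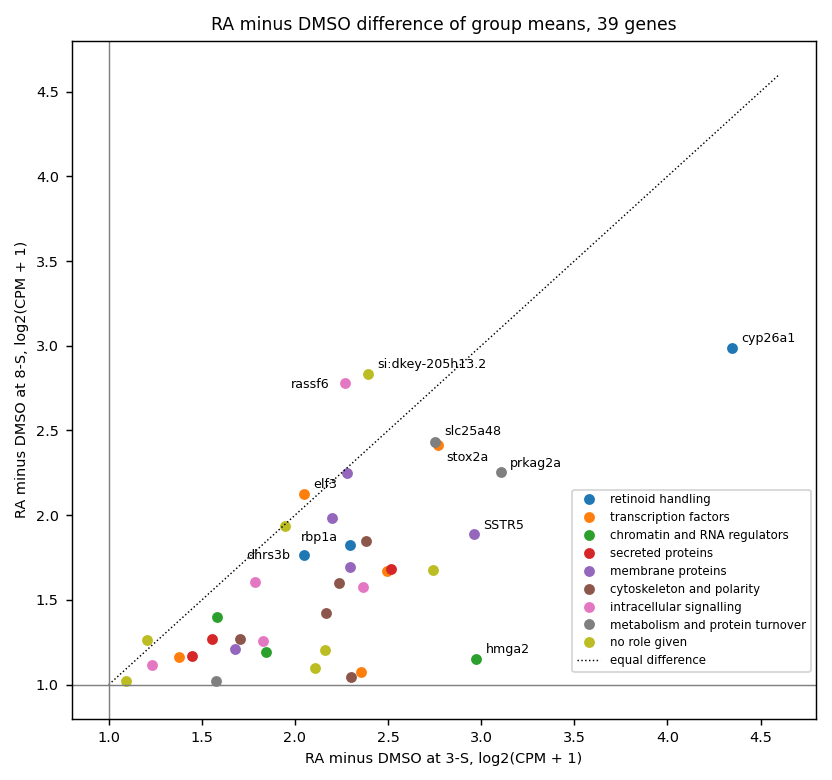
RA minus DMSO difference of group means in log2(CPM + 1) units at 3-S (x axis) and 8-S (y axis) for 39 of the genes (points, coloured by role), with the thresholds of 1 as grey lines and equality as a dotted line. The gene cyp26a1 lies far to the right with 4.35 at 3-S and 2.99 at 8-S, and 35 genes lie below the dotted line.

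The values nearest to the thresholds show how the set was bounded. Just inside were hmga2, a chromatin-binding architectural protein, with an enrichment of L over NE cells of 1.01, and si:dkey-74g3.3 and the ubiquitin protease usp43b, whose RA difference at 8-S was 1.02 each. Just outside lay anxa4 with a smallest difference of 0.98, tmem88b with 0.96 and tmem45b with 0.95. On the side of BMS493, the members closest to being left out were dlg5a, prkag2a and cldnd. The gene dlg5a, a scaffold of epithelial polarity, differed from DMSO by -0.94 at 3-S and -1.19 at 8-S, prkag2a by -1.10 and -0.81, and the claudin cldnd by -0.81 and -0.99.

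The 3 retinoid-handling members had their highest levels in RA cells. The gene cyp26a1 (ENSDARG00000033999) encodes the cytochrome P450 that oxidises and inactivates RA. At 3-S it was measured at 81.9, 43.7 and 54.3 CPM in the 3 NE libraries, 160.1, 145 and 135 in DMSO, 3653, 2194 and 3349 in RA and 128, 131 and 177 in BMS493 libraries. At 8-S the values were 49.4, 44.6 and 43.2 CPM in NE, 134, 231 and 115 in DMSO, 644, 1474 and 1902 in RA and 164, 166 and 122 in BMS493 libraries. BMS493 and DMSO libraries overlapped at both stages, and library 1 was the lowest RA library at 8-S.

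The gene rbp1a (ENSDARG00000016235) encodes a cellular retinol-binding protein, which carries retinol to the enzymes that convert it. At 3-S its values were 38.4, 35.9 and 31.8 CPM in NE, 146, 259 and 131 in DMSO, 667, 1091 and 815 in RA and 152, 109 and 126 in BMS493 libraries. At 8-S they were 63.6, 39.964 and 61.980 CPM in NE, 354, 238 and 286 in DMSO, 1277, 733 and 1154 in RA and 112, 107 and 107 in BMS493 libraries. At 8-S the 3 BMS493 libraries lay close together and below all DMSO libraries.

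The gene dhrs3b (ENSDARG00000044803) is a copy of the dehydrogenase Dhrs3, which in mammals reduces retinaldehyde to retinol. At 3-S it was measured at 66.2, 56.5 and 69.3 CPM in NE, 226, 210.3 and 278 in DMSO, 640.3, 1004 and 1462 in RA and 109, 127 and 183 in BMS493 libraries. At 8-S the values were 35.3, 55.6 and 38.4 CPM in NE, 126, 167 and 111 in DMSO, 349, 603 and 443 in RA and 83.7, 54.2 and 139 in BMS493 libraries. The BMS493 libraries were below every DMSO library at 3-S and overlapped with them at 8-S. Its paralogue dhrs3a, which the BMS493 criterion left out, had 138.1, 119.2 and 114.9 CPM in DMSO and 3.82, 0.0990 and 2.72 in BMS493 libraries at 3-S, and reads that fit both copies were not counted.

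Among the transcription factors, hnf1ba (ENSDARG00000006615), a homeodomain protein of hindbrain and gut patterning in zebrafish, had values of 45.1, 36.4 and 33.1 CPM in NE, 185, 146 and 169 in DMSO, 504, 424 and 379.6 in RA and 142, 176 and 112 in BMS493 libraries at 3-S. At 8-S they were 23.1, 26.6 and 19.9 CPM in NE, 140.4, 193 and 153 in DMSO, 323, 416 and 351 in RA and 106, 84.8 and 94.6 in BMS493 libraries. BMS493 and DMSO overlapped at 3-S and were separate at 8-S, with BMS493 between NE and DMSO. The zinc finger gene osr1 (ENSDARG00000014091), a regulator of intermediate mesoderm and kidney, was measured at 17.8, 12.2 and 21.1 CPM in NE, 55.1, 73.5 and 77.3 in DMSO, 353, 369 and 447 in RA and 87.041, 37.2 and 60.1 in BMS493 libraries at 3-S. At 8-S its values were 20.4, 28.6 and 14.4 CPM in NE, 114, 67.7 and 78.9 in DMSO, 239, 292 and 288 in RA and 48.6, 29.5 and 61.9 in BMS493 libraries. The order was that of hnf1ba, with BMS493 below every DMSO library at 8-S and mixed with DMSO at 3-S.

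The nuclear receptor gene hnf4a (ENSDARG00000021494), a regulator of liver and gut epithelium, was low in all groups. At 3-S it had 0.955, 0.824 and 0.653 CPM in NE, 8.35, 1.25 and 2.16 in DMSO, 23.008, 23.6 and 14.007 in RA and 3.46, 4.16 and 3.11 in BMS493 libraries. At 8-S it had 0.862, 1.84 and 1.10 CPM in NE, 7.54, 13.001 and 7.28 in DMSO, 13.1, 20.7 and 29.1 in RA and 4.40, 3.80 and 3.28 in BMS493 libraries. The lowest RA 8-S library was almost level with the highest DMSO 8-S library, and with the sum of both strand columns in place of the unstranded column hnf4a was no member.

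The gene elf3 (ENSDARG00000077982) encodes an ETS factor of epithelial cells. At 3-S its values were 0.478, 0.549 and 0.653 CPM in NE, 7.62, 15.6 and 9.05 in DMSO, 44.1, 53.4 and 40.4 in RA and 23.035, 9.70 and 15.3 in BMS493 libraries, and at 8-S 1.40, 0.866 and 0 CPM in NE, 5.98, 5.32 and 3.74 in DMSO, 9.56, 31.7 and 49.4 in RA and 4.06, 3.10 and 8.31 in BMS493 libraries. DMSO and BMS493 libraries overlapped at both stages. The storkhead-box gene stox2a (ENSDARG00000070162), which encodes a winged-helix protein, had 11.2, 7.69 and 15.8 CPM in NE, 31.8, 28.000 and 17.9 in DMSO, 419, 182 and 72.6 in RA and 18.2, 20.2 and 9.43 in BMS493 libraries at 3-S. At 8-S it had 8.08, 9.96 and 7.81 CPM in NE, 41.8, 43.7 and 43.3 in DMSO, 74.4, 349 and 487 in RA and 23.2, 24.8 and 11.6 in BMS493 libraries. The RA libraries of stox2a were widely spread at both stages, with library 3 the lowest at 3-S and library 1 the lowest at 8-S.

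**Figure D3:**
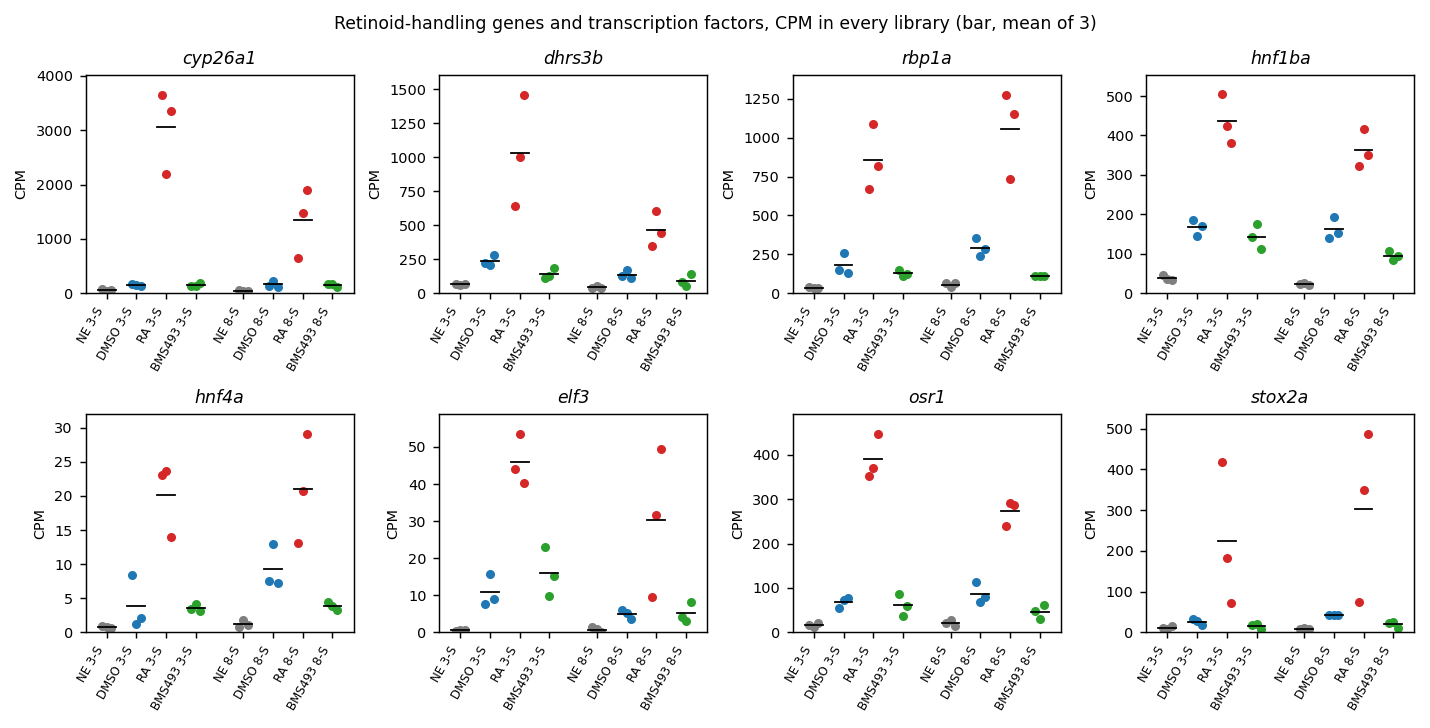
CPM of the 3 retinoid-handling genes and the 5 transcription factors in every library (points) with the group mean (bar), for NE, DMSO, RA and BMS493 cells at 3-S and 8-S on the x axis. BMS493 points of cyp26a1 lie with the DMSO points at both stages, and those of rbp1a, hnf1ba, osr1, hnf4a and stox2a lie below the DMSO points at 8-S.

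Of the members with the largest RA differences outside these classes, prkag2a (ENSDARG00000012625) encodes a regulatory subunit of AMP-activated protein kinase. Its values at 3-S were 1.15, 2.10 and 4.02 CPM in NE, 5.59, 10.7 and 8.84 in DMSO, 104, 48.8 and 91.4 in RA and 2.64, 3.27 and 3.99 in BMS493 libraries, and at 8-S 3.12, 4.76 and 3.31 CPM in NE, 9.35, 7.80 and 6.27 in DMSO, 17.7, 72.7 and 51.1 in RA and 3.83, 3.57 and 4.54 in BMS493 libraries. BMS493 libraries lay below all DMSO libraries at both stages. The mitochondrial carrier gene slc25a48 (ENSDARG00000021250) had 2.01, 3.20 and 1.30 CPM in NE, 6.97, 4.79 and 5.28 in DMSO, 38.8, 70.6 and 29.990 in RA and 11.7, 8.02 and 10.4 in BMS493 libraries at 3-S. At 8-S it had 4.20, 2.71 and 3.15 CPM in NE, 15.6, 8.27 and 10.5 in DMSO, 71.6, 49.8 and 74.4 in RA and 9.25, 4.81 and 8.10 in BMS493 libraries. At 3-S all BMS493 libraries of slc25a48 were above all DMSO libraries, and at 8-S the groups overlapped. The uncharacterised si:dkey-205h13.2 (ENSDARG00000089429) had 0.573, 0.732 and 1.20 CPM in NE, 6.08, 8.02 and 8.95 in DMSO, 34.3, 35.7 and 70.1 in RA and 2.28, 2.18 and 7.10 in BMS493 libraries at 3-S, and 0, 0 and 2.84 CPM in NE, 2.47, 1.30 and 16.2 in DMSO, 22.4, 51.7 and 39.4 in RA and 8.68, 5.59 and 9.21 in BMS493 libraries at 8-S. Its DMSO 8-S values were far apart, with library 3 well above the others.

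BMS493 and DMSO endodermal cells were compared to describe the members' levels with BMS493. The comparison cannot answer whether genes that exogenous RA raised also depended on endogenous RA signalling. The 24 raised and enriched genes lower by at least 1 at both stages had been left out. The DMSO libraries had also already served to choose the members. Calls and p-values of this comparison are therefore given as description, here and for single genes below. The shares and medians over all genes tested are no yardstick for the members at either stage. At 3-S none of the 40 members was called against DMSO (DESeq2, adjusted p under 0.01), where 0.173% of 17374 genes were called, all lower. At an unadjusted p under 0.05, 1 member was higher and 9 were lower, where 3.01% and 3.6% of all genes tested were, and edgeR called 0. The median log2 fold change was -0.61 over the members and 0.01 over all genes tested, and it was below 0 for 32 members (80%), against 49.5% of all genes. The 3 and 3 normalised counts did not overlap for 10 members that were lower and 2 that were higher, where 3.87% and 5.07% of all genes tested did so.

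At 8-S 3 members were called and all were lower, where 0.387% of 16814 genes tested were called in either direction and 0.381% lower. These were iqgap2, birc6-as2 and rbp1a. The gene iqgap2 (ENSDARG00000060010) encodes a scaffold that binds actin and the GTPases Cdc42 and Rac, and had 7.28, 6.15 and 4.75 CPM in DMSO and 1.47, 0.776 and 1.40 in BMS493 libraries at 8-S, beside 4.31, 1.73 and 1.10 in NE and 12.8, 27.9 and 38.984 in RA libraries. At 3-S it had 0.955, 1.01 and 1.30 CPM in NE, 3.73, 6.25 and 3.45 in DMSO, 49.5, 15.2 and 25.4 in RA and 2.91, 0.99 and 2.92 in BMS493 libraries. Its log2 fold change against DMSO was -2.26 (SE 0.54, DESeq2 adjusted p = 0.00668) at 8-S, and the BMS493 8-S values lay within the NE range or below it.

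The transcript birc6-as2 (ENSDARG00000097706), annotated as antisense to birc6, had 17.9, 10.4 and 11.5 CPM in DMSO and 4.06, 3.49 and 2.16 in BMS493 libraries at 8-S, beside 0.539, 0.866 and 0.394 in NE and 48.8, 31.1 and 19.7 in RA libraries. At 3-S it had 0.764, 0.458 and 0.218 CPM in NE, 13.5, 6.97 and 9.05 in DMSO, 56.3, 38.020 and 45.5 in RA and 7.74, 5.25 and 5.06 in BMS493 libraries. Its log2 fold change against DMSO was -1.94 (SE 0.44, DESeq2 adjusted p = 0.00274) at 8-S, and all BMS493 libraries stayed above all NE libraries at both stages. The library kit does not mark strand, so reads from the opposite strand within this transcript would be counted with it. For rbp1a the log2 fold change was -1.33 (SE 0.32, DESeq2 adjusted p = 0.00889) at 8-S and -0.50 (SE 0.32, DESeq2 adjusted p = 0.847) at 3-S.

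The 3 calls depended on the test and on single libraries. With edgeR none passed, with adjusted p of 0.0608 for birc6-as2, 0.0875 for iqgap2 and 0.0696 for rbp1a. Without DMSO 8-S library 1, or without DMSO 8-S library 3, 0 members were called, and without any 1 of the other DMSO and BMS493 8-S libraries 1 or 2 were. These were not always the same genes. Over these fits the 3 calls were kept 3 times and lost 15 times. The gene gse1a was called only without BMS493 8-S library 1, and mcrip2 only without BMS493 8-S library 3. With the 2 compared groups alone the 3 calls were kept, and hmga2 was called lower as well (-1.67, DESeq2 adjusted p = 0.00313). Of 12 alternatives in all, birc6-as2 was called in 8, rbp1a in 5 and iqgap2 in 4. Over all 40 members the median log2 fold change at 8-S was -0.80, against 0.02 over all genes tested, and 34 members (85%) were below 0, against 47.8% of all genes. At an unadjusted p under 0.05, 18 were lower and 0 higher, where 3.05% and 1.95% of all genes tested were. The counts of 18 members lay below DMSO without overlap and of 0 above it, where 4.98% and 4.89% of all genes tested did so. As at 3-S, these shares are no yardstick, since the DMSO libraries had served to choose the members.

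By role, all 3 retinoid-handling, all 3 chromatin or RNA and all 4 secreted members had a log2 fold change below 0 at both stages, with class medians at 8-S of -0.51, -1.43 and -0.74. Among them, cyp26a1 was at -0.05 at 3-S (95% interval -0.76 to 0.66) and at -0.0016 at 8-S (-0.71 to 0.71), whereas hmga2 was at -1.67 at 8-S (DESeq2 adjusted p = 0.0446). The gene gse1a, a relative of a mammalian histone deacetylase complex component, was at -1.43 at 8-S and mcrip2, whose mammalian counterpart associates with stress granules, at -1.02, with DESeq2 adjusted p of 0.0647 and 0.181. The 5 transcription factors had medians of -0.24 at 3-S and -0.83 at 8-S, and elf3 alone among them was above 0, with 0.54 and 0.10. At the other end of the range was myo10l3, an unconventional myosin related to myosin X, with 0.90 at 3-S and 0.33 at 8-S and DESeq2 adjusted p of 0.841 and 0.999. The BMS493 effect at 8-S minus that at 3-S was called for 0 of 40 members (DESeq2 interaction, 0% of 29144 genes called), with 1 member at an unadjusted p under 0.05.

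**Figure D4:**
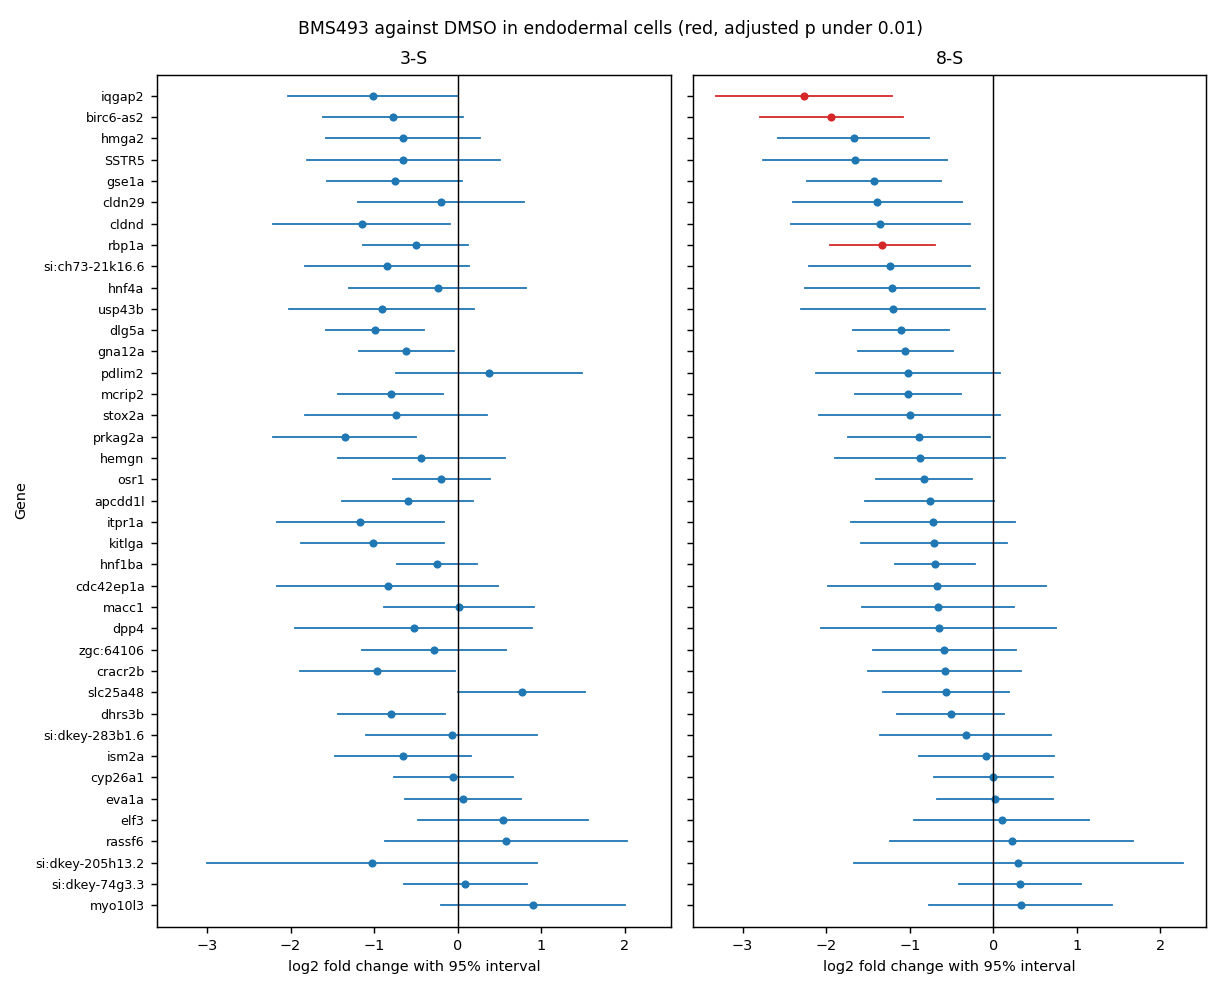
Log2 fold change of BMS493 against DMSO (points) with its 95% interval (lines) for 39 of the genes at 3-S (left) and 8-S (right), ordered by the value at 8-S, with called genes in red. No gene is red at 3-S and 3 are at 8-S, while 31 and 33 points lie left of 0.

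The marker sums of the same libraries were set beside this comparison. The endodermal list summed to 1443 to 3255 CPM in BMS493 and 2352 to 2825 in DMSO cells at 3-S, and to 1718 to 3169 and 1508 to 2128 at 8-S. The neural list was higher in BMS493 cells at 3-S, with 640.3 to 906.7 against 361.0 to 476.0 CPM, and overlapped at 8-S with 572.9 to 1107 against 697.4 to 808.3. The paraxial mesoderm and tailbud list overlapped at 3-S and was lower in BMS493 cells at 8-S, with 316.3 to 572.4 against 624.5 to 889.5 CPM. The yolk syncytial layer list also overlapped at 3-S and was lower at 8-S, with 22.8 to 33.6 against 35.1 to 56.0 CPM, but without hnf4a and mxtx1 it was not, with 18.4 to 28.1 against 12.6 to 18.4. The other lists overlapped at both stages. The part of these markers in the members' BMS493 values was not tested. Of the 174 genes that RA raised without endodermal enrichment, 100 (57.5%) had a lower L with BMS493 at both stages, as had 30 of the 40 members (75%) and 27.4% of the 16228 genes with an L of at least 1 in some group. The median BMS493 minus DMSO difference of L was -0.17 at 3-S and -0.43 at 8-S in the 174, and -0.49 and -0.78 in the members, and this difference between the sets was not tested. The sets are not alike. The BMS493 criterion removed 24 genes from the enriched ones and was not applied to the 174. The members were also chosen for higher L in DMSO than in NE cells, and the 174 were not.

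BMS493 endodermal cells were compared with NE cells to describe the members' levels after BMS493 treatment. The NE libraries had served to choose the members, the BMS493 libraries only through the criterion on falls. The choice asked for a higher mean L in DMSO than in NE cells. It also removed 24 raised and enriched genes that were lower with BMS493 at both stages. Values above NE cells were thus in part built in, and the shares over all genes tested are no yardstick. The comparison cannot show how much endodermal enrichment remained. Its calls and adjusted p-values, here and for single genes below, are given as description, since the NE libraries had served to choose the members. At 3-S 20 members were called higher in BMS493 endodermal cells and 0 lower (DESeq2), where 4.9% of 18495 genes tested were called higher. At 8-S 16 were called higher and 0 lower, where 5.28% of 19056 genes were. The median log2 fold change was 1.47 at 3-S and 1.21 at 8-S, against 0.03 and -0.10 over all genes tested. At both stages 14 of the members were called. With edgeR 14 members were called at 3-S and 13 at 8-S, and 0 lower.

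Among the members called, rassf6 (ENSDARG00000000804), which encodes a Ras-association domain protein, had 0.191, 0.275 and 0.435 CPM in NE, 8.43, 2.19 and 8.41 in DMSO, 17.9, 77.9 and 20.4 in RA and 10.2, 9.11 and 10.1 in BMS493 libraries at 3-S. At 8-S it had 1.19, 0.866 and 0.315 CPM in NE, 13.25, 0.236 and 12.4 in DMSO, 43.7, 29.4 and 55.6 in RA and 14.8, 6.44 and 6.98 in BMS493 libraries, and DMSO library 2 lay at the level of NE cells. All BMS493 libraries lay above all DMSO libraries at 3-S. Without that library its RA minus DMSO difference of L at 8-S was 1.62 in place of 2.78. BMS493 exceeded NE cells by 5.03 (SE 0.88, DESeq2 adjusted p = 4.34e-07) at 3-S and by 3.64 (SE 0.79, DESeq2 adjusted p = 0.000102) at 8-S on the log2 scale.

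The gene zgc:64106 (ENSDARG00000011371) had 0.669, 1.01 and 1.30 CPM in NE, 21.2, 31.5 and 14.4 in DMSO, 88.4, 117 and 83.3 in RA and 30.7, 9.80 and 17.018 in BMS493 libraries at 3-S, and 2.69, 1.08 and 0.71 CPM in NE, 48.1, 25.1 and 33.9 in DMSO, 77.962, 50.6 and 106 in RA and 33.2, 16.4 and 18.1 in BMS493 libraries at 8-S. Its log2 fold change of BMS493 against NE cells was 4.24 (SE 0.51, DESeq2 adjusted p = 1.42e-14) at 3-S and 3.98 (SE 0.49, DESeq2 adjusted p = 4.48e-14) at 8-S. For elf3 these values were 4.803 (SE 0.62, DESeq2 adjusted p = 1.39e-12) and 2.90 (SE 0.61, DESeq2 adjusted p = 4.97e-05). All BMS493 libraries of both genes lay above all NE libraries at both stages.

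By class, 4 of 5 transcription factors and 3 of 3 retinoid-handling members were called higher than in NE cells at 3-S, and 3 of 5 and 2 of 3 at 8-S. In all 18 members were called at neither stage. Among these were the 3 chromatin or RNA members, the claudins cldnd and cldn29, the somatostatin receptor gene SSTR5, the inositol trisphosphate receptor gene itpr1a, kitlga, which encodes a ligand of the receptor Kit, and dlg5a. For dlg5a the log2 fold change of BMS493 against NE cells was 0.09 at 3-S (95% interval -0.49 to 0.67) and 0.37 at 8-S (-0.22 to 0.95). For iqgap2 it was 1.03 (-0.08 to 2.13) and -0.91 (-1.996 to 0.17). The full order, with all NE libraries below all BMS493, all BMS493 below all DMSO and all DMSO below all RA libraries in CPM, held for 5 members at 3-S and 10 at 8-S, and 0.105% and 0.154% of the 16228 genes showed it. Within this order the choice of genes had fixed that all RA libraries lay above all DMSO libraries. It had also asked for a higher mean L in DMSO than in NE cells. All DMSO libraries lay above all NE libraries for 36 of 40 members at 3-S and 35 at 8-S. The share over unselected genes is therefore no yardstick for the members.

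**Figure D5:**
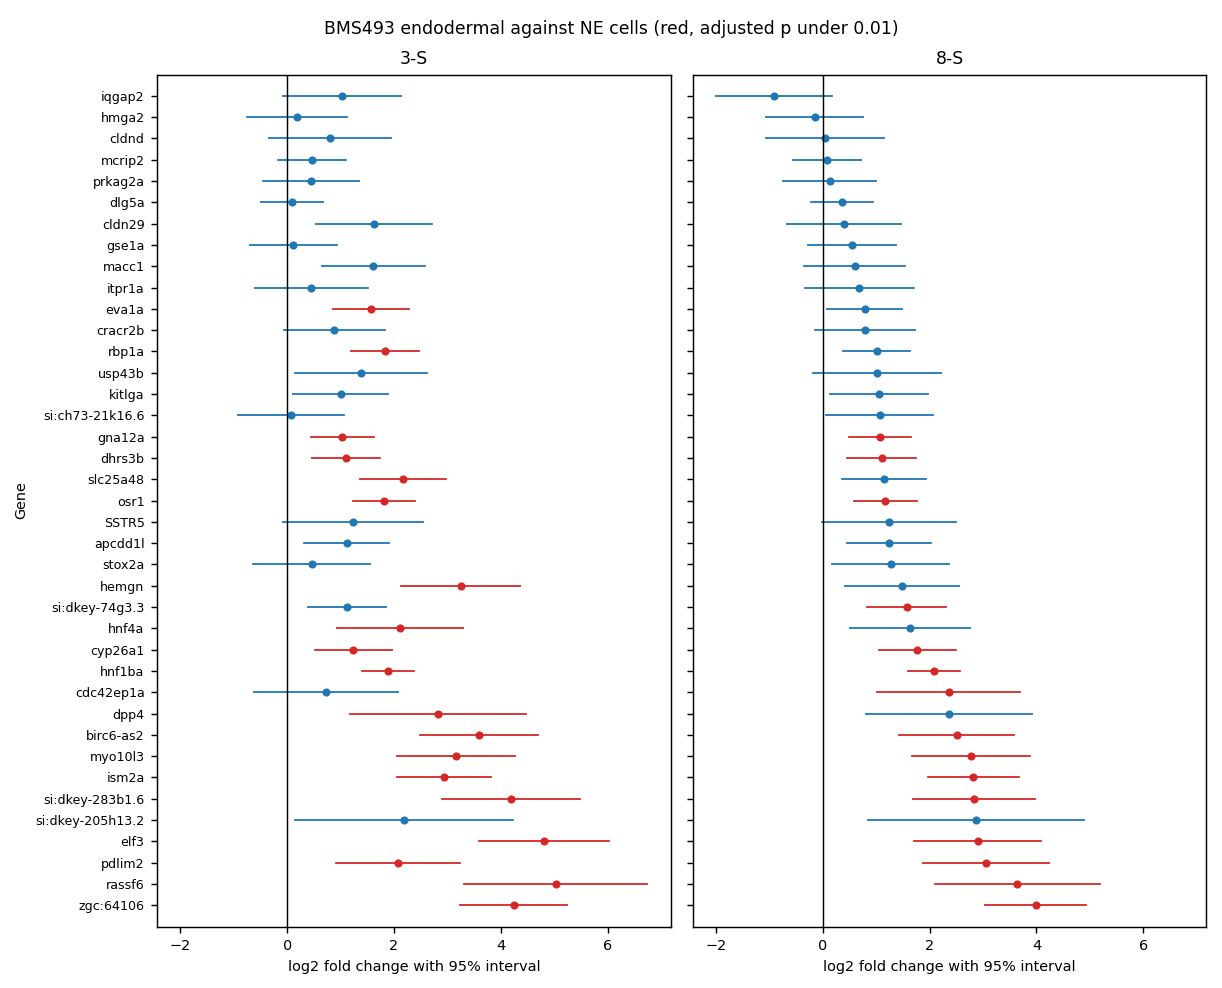
Log2 fold change of BMS493 endodermal against NE cells (points) with its 95% interval (lines) for 39 of the genes at 3-S (left) and 8-S (right), ordered by the value at 8-S, with called genes in red. Of the 39 genes drawn, 19 are red at 3-S and 15 at 8-S, and all red points lie right of 0.

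Between the stages 0 members were called in each of the 4 kinds of cell. In RA cells 0 of 40 members were called (DESeq2, 0.0956% of 15693 genes called), with 0 members higher and 4 lower by an unadjusted p under 0.05, where 6.61% and 6.19% of all genes tested were. The lowest adjusted p was that of kitlga, whose log2 fold change from 3-S to 8-S was -1.67 (SE 0.42, DESeq2 adjusted p = 0.0353). Its RA values were 67.9, 61.6 and 138 CPM at 3-S and 17.5, 36.3 and 28.6 at 8-S, without overlap. The genes dhrs3b and cyp26a1 followed with -1.12 (DESeq2 adjusted p = 0.0804) and -1.18 (DESeq2 adjusted p = 0.11), and both had all RA 8-S libraries below all RA 3-S libraries. The same RA libraries had served to choose the members.

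In DMSO cells 0 members were called (0.291% of 15135 genes), with 7 members higher and 3 lower by an unadjusted p under 0.05, where 4.86% and 4.49% of all genes tested were. The median log2 fold change of the members was 0.30 against -0.01 over all genes tested. The DMSO libraries had also served to choose the members, and so had the NE libraries compared below. The lowest adjusted p was that of pdlim2, a PDZ and LIM domain protein gene, with 1.87 (SE 0.57, DESeq2 adjusted p = 0.0859), and its DMSO values were 10.9, 2.81 and 4.20 CPM at 3-S and 21.8, 30.4 and 19.9 at 8-S. Without DMSO 3-S library 1, which held the highest 3-S value of pdlim2, pdlim2 and hnf4a were called higher at 8-S. In BMS493 cells 0 members were called (0.0214% of 14015 genes), with 1 member higher and 2 lower by an unadjusted p under 0.05, where 4.45% and 3.98% of all genes tested were. In NE cells 0 were called as well (0.0141% of 21298 genes), with 1 higher and 1 lower at that p, where 2.45% and 1.18% were, and edgeR called 0 members in all 4 stage comparisons. The median log2 fold change of the members was 0.32 in NE cells, against 0.07 over all genes tested. It was -0.12 against 0.01 in RA cells and -0.02 against -0.02 in BMS493 cells. The share of reads on the first strand was 50.6% to 52.6% in 3-S and 49.8% to 50.2% in 8-S libraries, so that the stage and this difference between libraries cannot be told apart. In RA and BMS493 cells the stage can also not be told apart from the time since treatment ended.

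The other genes of the pathway were described from a list of retinoid metabolism and receptor genes written with results of these data known. Beside the 3 members it held 33 gene IDs, of which 30 were tested at 3-S and 27 at 8-S against DMSO with RA. At 3-S 7 of them were called higher after RA and 6 lower (DESeq2), and at 8-S 4 and 6, where 1.93% of all genes tested were called higher and 2.2% lower at 3-S, and 0.953% and 1.72% at 8-S. With BMS493 0 were called higher and 3 lower at 3-S, and 0 and 2 at 8-S, where 0.173% and 0.381% of all genes tested were called lower. At both stages dhrs3a was called lower with BMS493, with a log2 fold change at 3-S of -5.87 (DESeq2 adjusted p = 2.55e-32, SE 0.47) and of -6.64 in 8-S cells (DESeq2 adjusted p = 1.60e-36, SE 0.50). For cyp26b1, a paralogue of cyp26a1 that also inactivates RA, the RA libraries had 683.2, 236.5 and 222.6 CPM at 3-S and the DMSO libraries 5.02, 2.81 and 9.49, but NE libraries had 67.0, 28.4 and 37.2 CPM, above all DMSO libraries. Its log2 fold change in RA against DMSO cells was 6.07 at 3-S (SE 0.66, DESeq2 adjusted p = 2.06e-17). Another paralogue, cyp26c1, went the other way. It had 872.3, 278.4 and 351.8 CPM in DMSO and 0.629, 3.90 and 5.93 in RA libraries at 3-S. At 8-S its mean was 498.9 CPM in DMSO and 11.7 in RA cells.

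The lists that follow were also written with results of these data known. The same shares of all genes tested stand beside their counts but are no yardstick for them. On the list of foregut, liver and pancreas regulators, which holds the members hnf1ba and hnf4a, 21 other gene IDs were found. After RA 8 of these were called higher at 3-S and 1 lower, and 1 and 1 at 8-S, while with BMS493 0 were higher and 3 lower at 3-S and 0 and 8 at 8-S. On the list of tight junction and apical epithelial genes, with the members cldnd, dlg5a and dpp4, a membrane peptidase gene, 24 others were found. With RA 10 of these were called higher at 3-S and 6 at 8-S, and 0 lower at either stage. With BMS493 1 was called lower at 3-S and 6 at 8-S, and 0 higher. None of the 20 hox genes of groups 1 to 6 was a member. After RA 14 of them were called higher at 3-S and 10 at 8-S, with 2 lower at each stage, and with BMS493 3 were called lower at 3-S and 6 at 8-S. The gene hoxb5b met the criteria on RA and on enrichment and was left out by that on BMS493. The same held for gata6, cebpa and ascl1b on the foregut list and for epb41l4a and cldn3d on the tight junction list.

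The members not yet given with values are described by role, with examples as the mean CPM ± SD of 3 libraries. Among the 3 chromatin or RNA members, hmga2 had 4.34 ± 2.05 in NE, 7.91 ± 5.55 in DMSO, 60.5 ± 17.8 in RA and 5.03 ± 2.65 in BMS493 cells at 3-S. At 8-S its means were 6.91 ± 0.806 in NE, 20.5 ± 4.44 in DMSO, 47.9 ± 16.7 in RA and 6.16 ± 1.67 in BMS493 cells, and the BMS493 and DMSO libraries did not overlap. The means of gse1a at 8-S were 7.33 ± 3.12 in NE, 28.9 ± 10.5 in DMSO, 65.1 ± 14.4 in RA and 10.5 ± 6.13 in BMS493 cells. Between BMS493 and NE cells at 8-S the log2 fold change was -0.15 (95% interval -1.06 to 0.76) for hmga2 and 0.55 (-0.27 to 1.36) for gse1a.

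Further secreted members were ism2a, of the isthmin family, and apcdd1l, related to an inhibitor of Wnt signalling. The means of ism2a were 2.18 ± 1.15 in NE, 26.3 ± 11.1 in DMSO, 74.9 ± 9.86 in RA and 16.974 ± 8.87 in BMS493 cells at 3-S and 3.33 ± 1.26 in NE, 25.1 ± 5.89 in DMSO, 62.8 ± 18.6 in RA and 22.7 ± 5.48 in BMS493 cells at 8-S. BMS493 and DMSO libraries of ism2a overlapped at both stages, and ism2a was called higher in BMS493 than in NE cells at both.

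The 5 membrane members had enrichments between 1.11 and 1.76, and RA differences of L between 1.68 and 2.96 at 3-S and between 1.21 and 2.25 at 8-S. The dipeptidyl peptidase gene dpp4 had means of 0.531 ± 0.585 in NE, 4.18 ± 0.444 in DMSO, 24.6 ± 8.997 in RA and 2.53 ± 2.01 in BMS493 cells at 8-S, and its RA 3-S libraries were spread between 11.1 and 48.7 CPM. The neighbouring claudin genes cldnd and cldn29, whose products seal tight junctions, had RA 3-S means of 23.5 ± 8.42 and 14.2 ± 8.64 CPM and DMSO 3-S means of 4.12 ± 0.721 and 3.32 ± 1.10 CPM. With BMS493 cldnd was below all DMSO libraries at 3-S and cldn29 at 8-S, and neither was called. No membrane member was called higher in BMS493 than in NE cells at 8-S, and 2 were at 3-S.

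Of the cytoskeleton and polarity members, dlg5a had means of 40.8 ± 7.35 in NE, 86.4 ± 11.6 in DMSO, 411 ± 177 in RA and 44.1 ± 0.618 in BMS493 cells at 3-S and of 43.1 ± 5.75 in NE, 122 ± 10.9 in DMSO, 346 ± 125 in RA and 54.993 ± 18.6 in BMS493 cells at 8-S. Its BMS493 libraries lay below all DMSO libraries at both stages. The Cdc42 effector gene cdc42ep1a had means of 2.58 ± 1.51 in NE, 22.4 ± 12.952 in DMSO, 64.7 ± 14.4 in RA and 12.9 ± 6.59 in BMS493 cells at 8-S, and was called higher in BMS493 than in NE cells at that stage. The gene myo10l3 varied widely within groups, with BMS493 3-S libraries between 34.8 and 254.3 CPM and RA 8-S libraries between 127.2 and 464.7 CPM.

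In intracellular signalling, gna12a, the gene of a G protein alpha subunit, had means of 9.82 ± 0.702 in NE, 30.5 ± 3.07 in DMSO, 111 ± 15.3 in RA and 20.4 ± 3.35 in BMS493 cells at 3-S and of 9.87 ± 3.92 in NE, 43.2 ± 11.8 in DMSO, 106 ± 34.006 in RA and 20.040 ± 5.55 in BMS493 cells at 8-S. All BMS493 libraries of gna12a lay below all DMSO and above all NE libraries at both stages. The store-operated calcium entry regulator gene cracr2b had the smallest RA difference of this class at both stages, 1.23 and 1.11, and means of 7.45 ± 1.78 in NE, 19.6 ± 5.001 in DMSO, 42.9 ± 4.65 in RA and 12.2 ± 2.87 in BMS493 cells at 8-S. The gene macc1, whose mammalian counterpart activates transcription of the receptor gene MET, had means of 1.35 ± 0.473 in NE, 4.06 ± 0.989 in DMSO, 26.8 ± 12.4 in RA and 4.26 ± 1.01 in BMS493 cells at 3-S, with BMS493 and DMSO libraries that overlapped.

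Of the members without a role given, hemgn, whose mammalian counterpart is a nuclear protein of blood progenitors, had means of 1.03 ± 0.475 in NE, 12.6 ± 8.23 in DMSO, 48.5 ± 21.6 in RA and 9.92 ± 3.09 in BMS493 cells at 3-S, and was called higher in BMS493 than in NE cells at that stage. Over all remaining members the RA minus DMSO differences of L ran from 1.09 for si:dkey-74g3.3 to 2.97 for hmga2 at 3-S, and from 1.02 to 2.25, reached by dpp4, at 8-S. In si:dkey-74g3.3 the highest DMSO 3-S library, with 173.6 CPM, came close to the lowest RA 3-S library with 181.4. The receptor gene SSTR5 had 0.891, 1.15 and 3.56 CPM in DMSO and 20.1, 26.1 and 14.3 in RA cells at 3-S, and 7.66, 2.84 and 3.44 in DMSO and 15.6, 17.993 and 22.8 in RA cells at 8-S. For eva1a, a transmembrane protein gene linked to autophagy in mammals, 27.4% of the reads of both strand columns fell where another gene lies on the opposite strand and were not in the counts used, and with the strand columns summed it was called higher in BMS493 than in NE cells at 8-S as well. The claudins and other members with close paralogues are uncertain for the reads that fit several copies, which were not counted.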

How the data were processed

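RNA from sorted cells was reverse transcribed with an oligo dT primer and made into Nextera XT libraries, which do not mark strand. The authors aligned reads with STAR 2.5.4, per the labels to Zv9, and deposited raw counts per gene for 24 libraries. The column without regard to strand was used as deposited. The 4 summary rows were left out, 33737 gene IDs remained, and libraries held 9971059 to 17806766 counts. These include ENSDARG00000080337, which was left out of CPM and L and stayed in the DESeq2 fit. The library totals used for CPM were 7697899 to 14327060 counts. Names came from a gene name table and the study's gene lists.

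The 40 members and all gene lists were chosen with earlier results of these data known. Contrasts were fitted on all genes and all 24 libraries in 1 model with 8 groups by DESeq2 1.42.0 in R 4.3.3 (median-of-ratios size factors, Wald test, default filtering). Benjamini-Hochberg adjusted p under 0.01 was a call. RA against DMSO and DMSO endodermal against NE cells chose the members, whose values in them are given without tests. BMS493 against DMSO had a part in the choice through the criterion on falls, and its tests are given as description. Intervals of fold changes are at 95%. Values in every library were given by rule for the retinoid-handling members, the transcription factors, up to 3 members with the largest fold change among those called in each comparison, and the 5 with the largest RA difference, and values of L for the 3 genes on each side of a threshold. Other members named with values, such as kitlga, pdlim2, SSTR5, gse1a, mcrip2 and myo10l3, were chosen after their values were seen. Alternatives were edgeR 4.0.16, TMM library sizes, a minimum of 10 counts in 3 libraries, a replicate block, both strand columns summed, the compared groups alone, and each library left out. The model was also run on simulated counts with known changes, built from its fit to these data, and the outcome is not given here. The values of 1 member are not reported here, and it is left out of the plots, while counts and medians over the 40 include it.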

Additional observations from a re-analysis of the deposited data

How the results depend on the processing

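For BMS493 against DMSO at 8-S, 3 members were called, against 0 with edgeR and 0 to 2 when 1 library was left out. With the 2 compared groups alone, hmga2 was called beside these 3 members. Between the stages in DMSO cells, 0 members were called, and 0 to 2 when 1 library was left out. The other counts of members called stayed within 1.5 times of their main value under every alternative run, and no called member reversed its direction. Over all genes edgeR called 17 in place of 30 genes for BMS493 at 3-S and 23 in place of 65 at 8-S. The cause was not tested. The median log2 fold change of the members ran from -0.68 to -0.36 over these settings for BMS493 at 3-S and from -0.93 to -0.76 at 8-S, and from 1.33 to 1.59 and from 1.16 to 1.37 for BMS493 against NE cells.

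Same-numbered libraries did not deviate together in every pair of any comparison checked (lowest correlation -0.43, highest 0.58), and the numbers were not used to pair them. So few pairs cannot exclude a pairing, and DMSO endodermal against NE cells was not checked. With the replicate block 2 members were called for BMS493 at 8-S and 0 at 3-S, 20 and 19 against NE cells, and 0 between stages.

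With a pseudocount of 0.5, TMM library sizes or both strand columns summed, the rule gave 40 to 46 genes. These included 39 or 40 of the 40 described. With 1 replicate number left out of all 8 groups, or 1 library left out, it gave 37 to 51 genes. Of the 40 described, 28 to 37 were among them. The 2 sets that left out RA 8-S library 1 or DMSO 8-S library 2 were chosen after seeing the data. Levels under 3 counts, 0.209 to 0.390 CPM, cannot be told from 0 at this depth.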
